A study of Mus musculus with 47 samples.

Results

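Heat shock proteins and chaperonins are the molecular chaperones that bind unfolded or newly made proteins and help them to fold. The 10 genes described here were chosen by name from the 23416 genes listed once in the count files. They are the germ cell chaperones Hspa1l, Hspa2 and Hspa4l, and 7 chaperones that most cells use, Hspa5, Hspa8, Hsp90aa1, Hsp90ab1, Hspd1, Hspe1 and Hsph1. All 10 were present in every file and all 10 passed the filter on low counts in each comparison, which asks for enough counts in as many libraries as the smaller group holds.

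The study asked whether a change made in the germ line of male mice lacking Scml2, an X-linked gene for a germ cell protein of the Polycomb family, is passed on to their wild-type sons and grandsons. RNA was sequenced in 10 libraries of 5 groups with 2 libraries each, from males aged 8 to 12 weeks. Ctrl-F1 liver and Ctrl-F1 spermatozoa came from sons of wild-type fathers, and KO-F1 liver and KO-F1 spermatozoa from sons of Scml2-KO fathers. The sons of both kinds were made by intracytoplasmic injection of testicular sperm, were labelled with the background strain BDF2, and carry an intact Scml2 gene because a son receives the X chromosome of his mother. KO-F2 spermatozoa came from BDF3 males, the offspring of KO-F1 males mated naturally to C57BL/6 females, and there was no control group of that generation. Spermatozoa were motile cells that swam up from the cauda epididymis and were amplified with a SMART-Seq kit, while liver was sequenced from poly(A) RNA, so tissue and library kit cannot be told apart. The labels of both KO-F2 libraries name a sequencing run that the labels of the F1 sperm libraries do not name, so run, strain and generation cannot be told apart.

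Library totals were 11339729 to 14278900 counts in liver, 1503733 to 2778171 in F1 spermatozoa and 8384266 to 11462105 in KO-F2 spermatozoa. A single count was therefore worth most in the F1 sperm libraries, where the limit set by 3 counts was 1.08 to 2.00 CPM (counts scaled to a fixed library size). Scml2 itself had 0 counts in the 4 liver libraries and 0 to 18 in the 6 sperm libraries, and since the sons carry the gene this is no check of the knockout. The 14 hepatocyte markers made up 15.4 to 17.3% of liver counts, and the 30 markers of late spermatogenesis made up 13.01 to 14.7% of Ctrl-F1, 4.91 to 6.43% of KO-F1 and 16.8 to 17.0% of KO-F2 sperm counts. The 14 leukocyte markers made up 0.329 to 0.716% (Ctrl-F1), 1.28 to 3.12% (KO-F1) and 0.697 to 0.699% (KO-F2) of sperm counts, but marker by marker KO-F1 libraries had lower levels for 11 of 12 tested, all but Cd52, and KO-F2 libraries had higher levels than KO-F1 for 13 of 14, again all but Cd52. The 20 epididymal epithelium markers made up 0.780 to 2.27%, 1.61 to 1.64% and 0.198 to 0.400% in the same order, and no marker of these 3 lists was at 0 in all 6 sperm libraries.

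HSP70 proteins, here Hspa1l, Hspa2, Hspa5 and Hspa8, hold short unfolded stretches of a client protein and release them as they split ATP. HSP110 proteins, here Hspa4l and Hsph1, are relatives of HSP70 that exchange its nucleotide, HSP40 proteins deliver the clients, and the HSP90 proteins Hsp90aa1 and Hsp90ab1 take over clients that are nearly folded. Hspd1 and Hspe1 are the barrel and the lid of the chaperonin inside mitochondria, and Hspa5 (BiP) is the HSP70 of the endoplasmic reticulum. Male germ cells carry their own set: Hspa2 is made from the meiotic stages on and is needed to complete meiosis, Hspa1l is made in spermatids, and Hspa4l is an HSP110 with high expression in testis. Mature spermatozoa make little or no new RNA, so the transcripts measured in them are mostly left from spermatogenesis.

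The sequences of the promoters show which of the genes searched carry the classical heat shock or endoplasmic reticulum elements. No promoter was at hand for Hspa8, Hsp90aa1 and Hsp90ab1, so whether they carry such elements is not known here. For the other 7 of the 10 genes RefSeq promoters of GRCm38.p6 were found, from 250 bases before to 50 bases after a transcript start. The heat shock element of 3 units (GAA, TTC and GAA in turn with NN between them, on either strand) occurred in 0.603% of all 32851 promoters, and among these genes in Hspd1, Hspe1 and Hsph1. Hspd1 (chr1:55077833-55088243, minus strand) and Hspe1 (chr1:55088148-55091317, plus strand) lie head to head, overlap at their 5′ ends and share 1 stretch with 2 overlapping elements. The stretch ends 72 bases before the start of Hspe1 and 127 bases before the start of the shorter Hspd1 transcript. It lies within the annotated span of the longer one. The element of Hsph1 (chr5:149616845-149636336, minus strand) lies 16 to 28 bases after the start of 1 annotated transcript and 37 to 49 bases after that of the other. The element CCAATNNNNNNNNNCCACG, which marks genes that respond to unfolded protein in the endoplasmic reticulum, occurred in 0.119% of promoters, and among these genes in Hspa5 (chr2:34772090-34776529, plus strand), 65 to 47 bases before its start. The capitals mark the element in each stretch, written 5′ to 3′ on the strand of the gene.
Hspe1, chr1:55088056-55088085: ccgttctaGAACCTTCCGGAAggccccgcg
Hsph1, chr5:149636279-149636308: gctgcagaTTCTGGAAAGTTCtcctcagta
Hspa5, chr2:34772020-34772049: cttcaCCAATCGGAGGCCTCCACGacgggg

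For each of the germ cell members Hspa1l, Hspa2 and Hspa4l 1 promoter was searched. It held neither of these elements, nor the 2-unit forms GAANNTTC and TTCNNGAA, which occurred in 7.86 and 8.52% of promoters. Each of these 3 promoters held TGACG, the core of the cAMP response element, which is bound by the testis activator CREM. So did the promoters of Hspd1, Hspe1 and Hspa5 and 20.8% of all promoters. These stretches, with the core in capitals, are shown because the 3 genes are described together below. In Hspa2 the core lies on the opposite strand and reads CGTCA. The annotated Hspa2 gene starts at chr12:76404176, before this stretch, so the promoter of its 5′-most start was not searched.
Hspa1l, chr17:34972620-34972649: gggcgtgtccggTGACGtgatcctctccaa
Hspa4l, chr3:40745363-40745392: cgcTGACGggagcggccgagggcgaggccg
Hspa2, chr12:76404219-76404248: gcccaaggctggCGTCAagcgcctcaccca

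Control spermatozoa and control liver differed in which of these chaperones were high. In Ctrl-F1 spermatozoa Hspa1l had 382 and 184 counts, which scaled by the trimmed mean of M values (TMM) gave 166 and 155 CPM, against 0.640 and 0.806 CPM in Ctrl-F1 liver, from 9 and 12 counts. Hspa2 was at 312 and 155 CPM in the sperm libraries and at 2.06 and 2.82 CPM in the liver libraries. Hspa4l was at 284 and 286 CPM in sperm and at 10.9 and 11.2 CPM in liver. Both sperm libraries were far above both liver libraries for each of the 3 genes. These CPM were scaled within each tissue, and the fit over both tissues gave log2 fold changes of 7.78 ± 0.36 (SE), 6.59 ± 0.54 and 4.71 ± 0.27 for Hspa1l, Hspa2 and Hspa4l, with adjusted p values of 0.00121, 0.00134 and 0.00121 (edgeR quasi-likelihood test, n = 2 libraries per group).

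Lower in spermatozoa were the chaperonin pair, Hspa8 and Hsp90ab1. Hspd1 had only 12 and 6 counts in Ctrl-F1 spermatozoa, or 5.201 and 5.06 CPM, against 365 and 329 CPM in Ctrl-F1 liver, and fell by 6.05 ± 0.32 on the log2 scale (adjusted p = 0.00121, edgeR). Hspe1 was at 10.8 and 21.9 CPM against 121 and 117 CPM, a log2 change of -2.89 ± 0.42. Hspa8, the HSP70 that most cells make all the time, was at 56.8 and 35.4 CPM against 627 and 664 CPM, a log2 change of -3.77 ± 0.36. Hsp90ab1, the constant form of HSP90, was at 190 and 238 CPM against 803 and 816 CPM, a log2 change of -1.90 ± 0.28. A gene was called where its level differed 2-fold or more with an adjusted p below 0.01, and those 4 genes were called. The other 3 did not. Hsph1 was at 13.4 and 4.22 CPM against 61.3 and 56.04 CPM (adjusted p = 0.0162, edgeR). Hsp90aa1, the inducible HSP90, was at 277 and 113 CPM against 75.1 and 73.3 CPM (adjusted p = 0.0585, edgeR). Hspa5 was at 1174 and 803 CPM against 990 and 947 CPM, groups that overlapped. In all, 7 of the 10 genes were called between control spermatozoa and control liver, 3 higher and 4 lower, where 30.2% of all genes tested were called. DESeq2 called the same 7 and Hsph1, where it called 37.7% of genes. Without either liver library in turn the edgeR calls of Hsp90ab1 and Hspe1 were lost and 5 were left.

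The order of the levels per kilobase of exon differed between the groups. In Ctrl-F1 liver it ran from Hspa5 (370 ± 11.7 CPM per kb, SD, n = 2 libraries) over Hsp90ab1 (323 ± 3.80), Hspa8 (307 ± 12.6), Hspe1 (155 ± 3.39) and Hspd1 (134 ± 9.89) to Hsp90aa1 (26.0 ± 0.448), Hsph1 (16.8 ± 1.07), Hspa4l (3.11 ± 0.0672), Hspa2 (0.910 ± 0.200) and Hspa1l (0.299 ± 0.0486), and no neighbours in that order overlapped. In KO-F1 liver Hsp90ab1 and Hspa5 overlapped at 282 ± 2.21 and 281 ± 25.7 CPM per kb, and Hspa8 and Hspe1 overlapped at 203 ± 37.1 and 173 ± 10.7. In Ctrl-F1 spermatozoa Hspa5 was highest at 378 ± 100 CPM per kb. It was followed by Hspa2 (87.0 ± 41.2), Hsp90ab1 (85.4 ± 13.4), Hspa4l (80.1 ± 0.334), Hsp90aa1 (68.3 ± 40.6) and Hspa1l (66.4 ± 3.03), of which each overlapped the next. In KO-F1 spermatozoa Hspa5 (260 ± 86.4 CPM per kb) overlapped Hsp90ab1 (172 ± 44.5), and the next were Hspe1 (70.4 ± 44.3), Hspa8 (39.6 ± 17.1), Hsp90aa1 (28.6 ± 6.76) and Hspa2 (25.5 ± 1.48), each overlapping its neighbour. Hspa4l (22.7 ± 1.29) and Hspa1l (17.0 ± 3.17) came after them. The KO-F2 order was led by Hsp90ab1 (86.2 ± 7.25 CPM per kb), Hspa2 (84.6 ± 27.2), Hspa5 (80.4 ± 13.3) and Hspa4l (66.5 ± 8.92), of which each overlapped the next. Hsph1 was last or next to last in all 3 sperm groups.

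**Figure D1:**
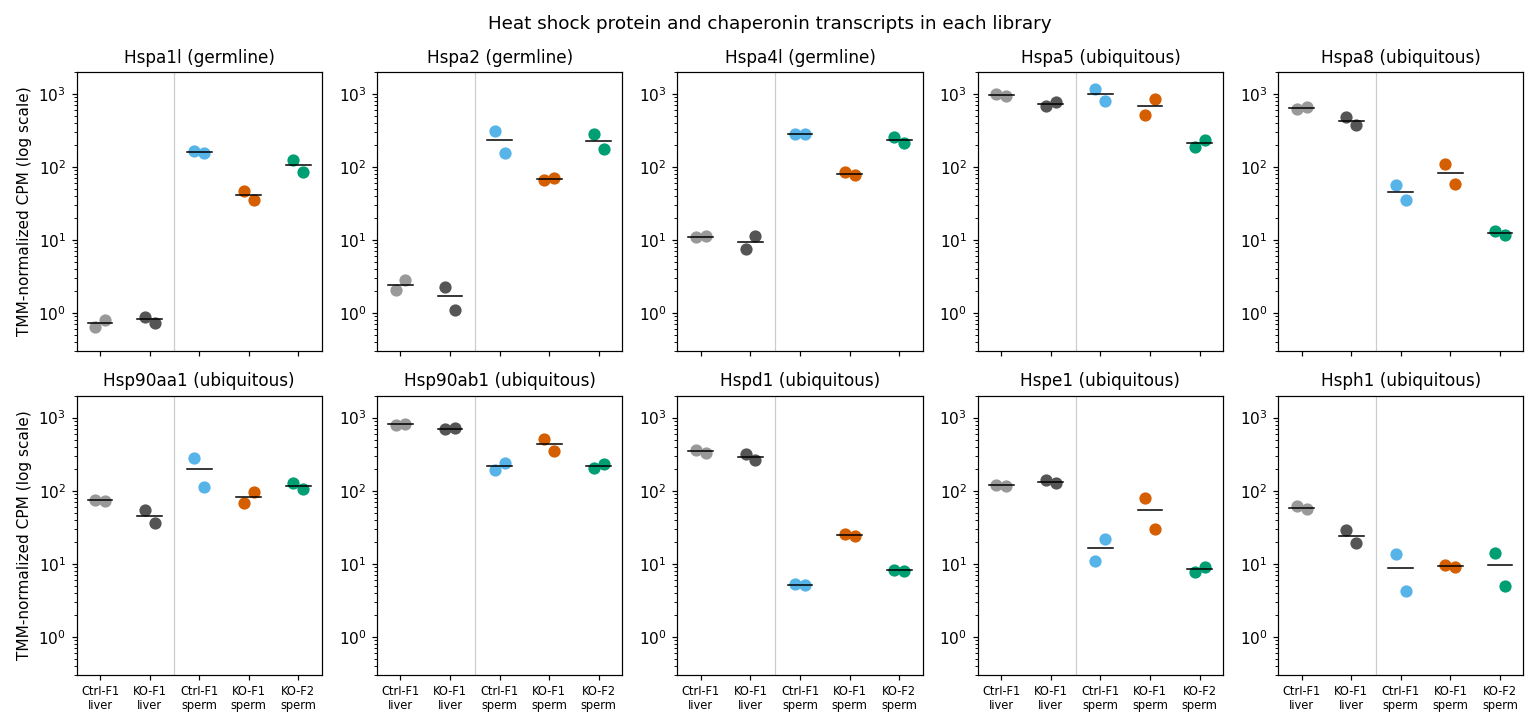
Level of each of the 10 genes in each library, as TMM-normalized CPM on a log axis. Points are libraries, black lines are means of the 2 libraries of a group, and liver and sperm libraries were scaled separately. Hspa1l, Hspa2 and Hspa4l are at 0.640 to 11.2 CPM in liver and at 35.6 to 312 CPM in spermatozoa, with the KO-F1 sperm libraries lowest among the sperm groups.

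The comparison of KO-F1 with Ctrl-F1 spermatozoa asks whether sons of Scml2-KO fathers carry altered sperm RNA. The 3 germ cell chaperones were lower in both KO-F1 libraries than in both Ctrl-F1 libraries. Hspa1l was at 46.4 and 35.6 CPM in KO-F1 spermatozoa, from 155 and 83 counts, against 166 and 155 CPM in Ctrl-F1. Hspa2 was at 65.6 and 71.2 CPM, from 219 and 166 counts, against 312 and 155 CPM, and its control libraries differed more from each other than its KO-F1 libraries did. Hspa4l was at 84.1 and 77.6 CPM, from 281 and 181 counts, against 284 and 286 CPM, the tightest of the 3. The log2 fold changes were -1.99 ± 0.42 (SE) for Hspa1l, -1.81 ± 0.48 for Hspa2 and -1.84 ± 0.39 for Hspa4l, that is 3.98-fold, 3.50-fold and 3.58-fold lower levels. By edgeR the adjusted p values were 0.140, 0.140 and 0.140, so none was called. By DESeq2, the tool named in the study's methods, all 3 passed the same limits, with adjusted p values of 0.00184, 0.00523 and 0.000501. DESeq2 called 7.8% of the 5000 genes it tested here and edgeR 0% of 10785, of which 2105 had an unadjusted p under 0.05. The DESeq2 calls rest on all 4 libraries: leaving out Ctrl-F1 replicate 2 left 1 call, Hspa2, and leaving out any of the other libraries left 0. Hspa1l and Hspa4l are on a gene list that the study drew from the same libraries, so their values are not independent of that list. The markers of late spermatogenesis moved with these genes: 28 of the 29 tested had lower levels in KO-F1 spermatozoa. Their median log2 change was -1.80 against 0.02 over all genes. The summed share of the leukocyte list was larger through Cd52, as given above. Since 11 of its 12 genes tested were lower, the sum does not stand for the list. The part of these markers in the difference was not tested. Fewer cells of a type and less RNA per cell cannot be told apart in such libraries.

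Hspa1l (chr17:34972703-34979228, plus strand) starts next to the stress-inducible HSP70 genes Hspa1a and Hspa1b, which are near-identical copies of each other, and an antisense gene overlaps it. The strand setting of the counting is not given in the sources used here, so reads of Hspa1l and of the antisense gene cannot be told apart. Hspa1a was at 18.6 and 54.5 CPM in KO-F1 against 19.5 and 4.22 CPM in Ctrl-F1 spermatozoa, and Hspa1b at 59.6 and 48.9 against 50.3 and 19.4 CPM. The groups overlapped for both neighbours, with log2 changes of 1.54 ± 0.89 and 0.58 ± 0.59, and reads may be split between these copies.

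The chaperonins and the constant HSP90 and HSP70 lay on the other side. Hspd1 was at 25.2 and 24.0 CPM in KO-F1 against 5.201 and 5.06 CPM in Ctrl-F1 spermatozoa, from 84 and 56 against 12 and 6 counts. Hspe1 was at 78.1 and 30.0 CPM against 10.8 and 21.9 CPM. Hsp90ab1 was at 510 and 352 CPM against 190 and 238 CPM, and Hspa8 at 109 and 57.9 CPM against 56.8 and 35.4 CPM. Both KO-F1 libraries were above both control libraries for these 4 genes, narrowly so for Hspa8. The log2 fold changes were 2.22 ± 0.79 for Hspd1, 1.72 ± 0.68 for Hspe1, 0.99 ± 0.40 for Hsp90ab1 and 0.81 ± 0.51 for Hspa8, and none was called by either tool (adjusted p from 0.189 to 0.438 by edgeR; DESeq2 gave Hspd1 and Hsph1 no adjusted p). Both chaperonin genes have processed pseudogenes, and their overlap at the 5′ ends leaves the origin of reads there open.

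Hsp90aa1 had the sign of the germ cell genes, at 68.0 and 95.2 CPM against 277 and 113 CPM, a log2 change of -1.29 ± 0.53 (adjusted p = 0.237, edgeR). Hspa5 overlapped between the groups, at 521 and 840 against 1174 and 803 CPM. Hsph1, the stress-inducible HSP110, overlapped too, at 9.58 and 9.01 against 13.4 and 4.22 CPM. Of the 10 genes, then, 4 lay wholly higher and 4 wholly lower in KO-F1 spermatozoa, where 28.7 and 25.4% of all genes tested did so, and 7 had an unadjusted p under 0.05.

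The makeup of the heat shock transcripts differed between the sperm groups. Of the counts of the 10 genes in the Ctrl-F1 sperm libraries, the 3 germ cell genes held 30.6% (29.4 to 31.8, Wilson interval at 95%) and 32.8% (30.9 to 34.8). They took 12.9% (12.0 to 13.9) and 11.6% (10.6 to 12.7) in KO-F1, and 54.3% (53.5 to 55.1) and 44.1% (43.1 to 45.2) in KO-F2 spermatozoa. The 3 groups did not overlap, and in liver the share was 0.442 to 0.563%. Of all counts, the 3 germ cell genes held 0.0724 and 0.0470% in Ctrl-F1 and 0.0651 and 0.0465% in KO-F2 spermatozoa. The ubiquitous genes held 0.164 and 0.0962% in Ctrl-F1 and 0.0548 and 0.0589% in KO-F2 spermatozoa. The larger KO-F2 share thus went with a smaller ubiquitous part.

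**Figure D2:**
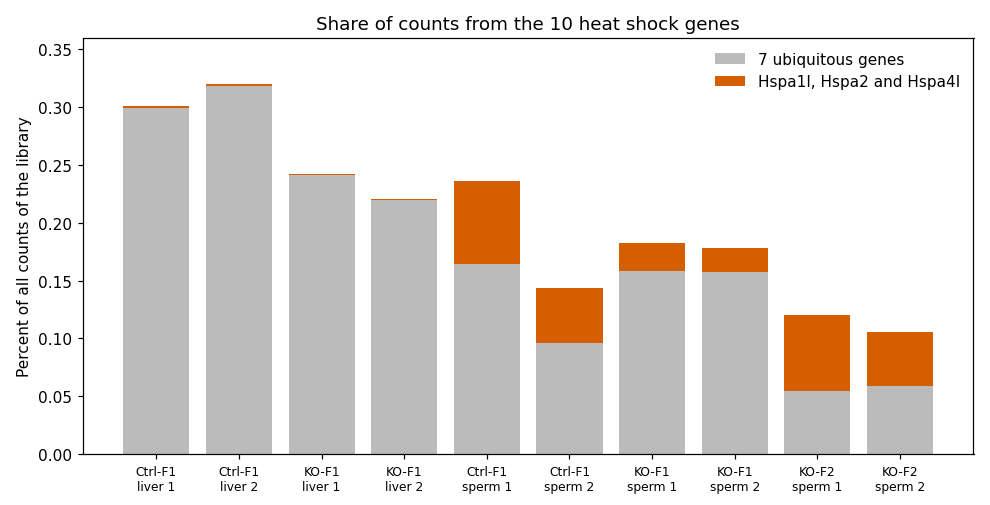
Share of all counts of each library that came from the 10 genes, with Hspa1l, Hspa2 and Hspa4l in orange and the 7 ubiquitous genes in grey. The 10 genes together took 0.221 to 0.320% of liver counts and 0.105 to 0.237% of sperm counts, and the orange part was 0.0206 to 0.0236% in KO-F1 against 0.0465 to 0.0724% in the other sperm libraries.

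The comparison of KO-F2 with Ctrl-F1 spermatozoa asks whether a difference persists in grandsons. Hspa5 was at 186 and 235 CPM in KO-F2 spermatozoa, from 2090 and 1926 counts, against 1174 and 803 CPM in Ctrl-F1, so the groups were wide apart. The log2 fold change was -2.23 ± 0.36, a 4.68-fold lower level, with an adjusted p of 0.149 by edgeR and 5.51e-07 by DESeq2. DESeq2 called Hspa5 also without each of the 4 libraries in turn. Hspa8 was at 13.3 and 11.8 CPM against 56.8 and 35.4 CPM, a log2 change of -1.87 ± 0.45 (adjusted p = 0.205, edgeR, and 0.0287, DESeq2). Hspa5 is on a list that the study drew from these libraries. The epididymal epithelium markers were also lower in KO-F2 spermatozoa, 11 of 16 tested. Their median log2 change was -0.59 against 0.07 over all genes. DESeq2 called 7 markers of this list lower and 0 higher, where it called 2.14% of all genes. Leukocyte markers were higher for 13 of 14 tested, with a median log2 change of 1.69 and 5 called by DESeq2. The blood markers held 0.0022 and 0.0435% of KO-F2 sperm counts (255 and 3650 counts). In Ctrl-F1 spermatozoa they held 0.00062 and 0.00013% (15 and 2 counts). Rn45s, the ribosomal RNA gene, held 13.3 and 3.52% of KO-F2 sperm counts, below the 20.6 and 28.7% of Ctrl-F1 and the 15.7 and 28.6% of KO-F1. The part of these in the difference was not tested.

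The germ cell chaperones were close to the control level in KO-F2 spermatozoa. Hspa1l was at 125 and 85.4 CPM (log2 change -0.59 ± 0.33) and Hspa4l at 259 and 214 CPM (-0.25 ± 0.29), each below both control libraries. Hspa2 was at 279 and 175 CPM, within the range of the controls, and its log2 change of -0.04 ± 0.45 turned positive, to 0.09, when libraries were scaled by their totals. Hspd1 (8.26 and 7.93 CPM), Hspe1 (7.64 and 9.15 CPM), Hsp90aa1 (126 and 104 CPM), Hsp90ab1 (203 and 229 CPM) and Hsph1 (14.04 and 5.00 CPM) had adjusted p values from 0.527 to 0.985 by edgeR. In this comparison edgeR called 0 of the 10 genes, of which 2 had an unadjusted p under 0.05, and 0% of 13149 genes, of which 1960 had one. DESeq2 called 1 of the 10 and 2.14% of all genes. Of the 10 genes 1 lay wholly higher and 5 wholly lower, where 28.6 and 19.4% of all genes tested did so.

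The 2 comparisons above share the Ctrl-F1 libraries, so the generations were compared directly. Between KO-F2 and KO-F1 spermatozoa the germ cell genes were higher in KO-F2 by log2 changes of 1.55 ± 0.36 for Hspa1l, 1.92 ± 0.37 for Hspa2 and 1.73 ± 0.32 for Hspa4l, with adjusted p values of 0.0285, 0.0166 and 0.0147 (edgeR). Of the 7 ubiquitous genes 5 lay wholly lower in KO-F2, and 3 of them had an adjusted p below 0.05. Hspa8 differed by -2.54 ± 0.42 (adjusted p = 0.0114, edgeR), Hspe1 by -2.51 ± 0.52 (adjusted p = 0.0203, edgeR) and Hspa5 by -1.53 ± 0.37 (adjusted p = 0.0308, edgeR). None of these 6 passed the limit of 0.01, where 2.31% of genes did. All 6 passed at an adjusted p under 0.05, where 20.4% of genes did, and by DESeq2 at the limit of 0.01, where 13.6% did. With a library left out, DESeq2 still called 1 to 5 of the 10 genes, 1 (Hspa8) without KO-F2 replicate 1 and 5 without KO-F1 replicate 1, and Hspa8 was called each time.

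The other 4 genes were not called by either tool. Hspd1 differed by -1.42 ± 0.45 and Hsp90ab1 by -0.82 ± 0.32, with groups that did not overlap. Hsp90aa1 differed by 0.67 ± 0.34, also without overlap, and Hsph1 by 0.23 ± 0.69, with overlap. In total 4 genes lay wholly higher and 5 wholly lower in KO-F2, against 33.9 and 32.3% of all genes tested. The late spermatogenesis markers were higher in KO-F2 for 29 of 30 genes (median log2 change 2.31), the leukocyte markers higher for 13 of 14 (median 2.53), and the epididymal markers lower for 13 of 18 (median -1.40), against 0.13 over all genes, and the Rn45s share was lower as given above. Their part in the differences was not tested.

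**Figure D3:**
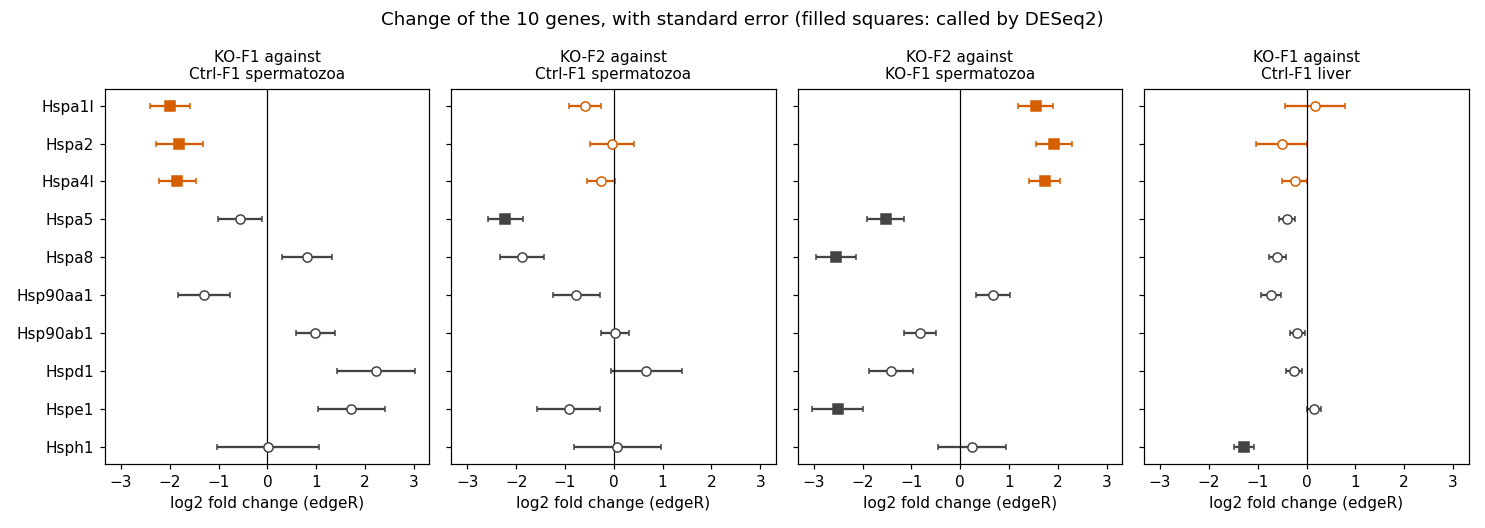
Log2 fold change of each gene in 4 comparisons, with its standard error from edgeR; germ cell genes are in orange and filled squares mark genes called by DESeq2. Hspa1l, Hspa2 and Hspa4l are at -1.99 to -1.81 in KO-F1 against Ctrl-F1 spermatozoa and at 1.55 to 1.92 in KO-F2 against KO-F1 spermatozoa, while the largest liver change is that of Hsph1 at -1.28.

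Liver was sequenced to ask whether somatic tissue of the sons differs as well. Hsph1 was at 28.8 and 19.4 CPM in KO-F1 liver, from 353 and 209 counts, against 61.3 and 56.04 CPM in Ctrl-F1 liver, from 862 and 834 counts. The groups did not overlap and the level was 2.43-fold lower, a log2 change of -1.28 ± 0.21, with an adjusted p of 0.252 by edgeR and 0.000399 by DESeq2. The DESeq2 call was kept without KO-F1 replicate 1 and lost without any of the other 3 libraries. Hsph1 is on a list that the study drew from these libraries.

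Smaller differences of the same sign were measured for Hsp90aa1, Hspa8 and Hspa5. Hsp90aa1 was at 53.5 and 35.8 CPM against 75.1 and 73.3 CPM (log2 change -0.73 ± 0.21), and Hspa8 at 482 and 372 against 627 and 664 CPM (-0.60 ± 0.18). Hspa5 was at 686 and 782 against 990 and 947 CPM (-0.40 ± 0.16). Neither tool called them, with adjusted p values of 0.484, 0.484 and 0.510 by edgeR. Hspd1 (-0.26 ± 0.17) and Hsp90ab1 (-0.19 ± 0.15) were lower and Hspe1 (0.16 ± 0.15) higher, each without overlap between the groups but by little. The 3 germ cell genes overlapped between the liver groups, at 0.640 to 0.898 CPM for Hspa1l, 1.11 to 2.82 for Hspa2 and 7.51 to 11.2 for Hspa4l.

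Of the 10 genes, 6 lay wholly lower and 1 wholly higher in KO-F1 liver, where 21.4 and 20.2% of all genes tested did so. edgeR called 0 of the 10, 4 of which had an unadjusted p under 0.05, and 0% of 11505 genes, of which 1083 had one. DESeq2 called 1 of the 10 and 0.274% of all genes. The ribosomal RNA gene Rn45s, which poly(A) selection should remove, held 0.636 and 0.706% of the Ctrl-F1 liver counts and 1.21 and 1.59% of the KO-F1 ones, a log2 change of 1.14 ± 0.23. Hepatocyte markers held 15.4 to 16.1% and 15.7 to 17.3% of counts. Leukocyte markers were higher in KO-F1 liver for 13 of 13 tested, with a median log2 change of 0.41, 2 of them without overlap and 0 called by either tool. Their part in the differences was not tested.

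The difference between the effects in spermatozoa and liver was tested with an interaction over the 8 F1 libraries. edgeR called 0 of the 10 genes, of which 5 had an unadjusted p under 0.05, and 0% of genes, of which 2068 had one. DESeq2 called Hspa1l (-2.42) and Hspa4l (-1.84) lower and Hspd1 (2.25) higher, and 2.09% of all genes tested. Its values were off centre, with a median log2 difference of -0.35 over all genes and 42.7% higher. By edgeR these were -0.05 and 48.8%.

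The wider chaperone network was taken from 11 lists of 126 further genes, of which 125 are in the files. In KO-F1 against Ctrl-F1 spermatozoa 116 of them were tested, 48 with higher and 68 with lower levels, and their median log2 change of -0.13 was close to the 0.02 of all genes. edgeR called 0 of them, with 7 higher and 17 lower at an unadjusted p under 0.05, and DESeq2 called 2 higher and 5 lower. These are near the shares over all genes, of which DESeq2 called 7.8% and 2105 of 10785 had an unadjusted p under 0.05. Of the 11 lists 3 had a single sign. All 7 other HSP70 and HSP110 genes tested had higher levels in KO-F1 spermatozoa, 3 without overlap (28.7% of all genes lay wholly higher). Their median log2 change was 0.58, and DESeq2 called 0 of them. Both genes tested of the heat shock factor list, Hsf1 and the factor-binding protein gene Hsbp1, were higher as well. All 13 genes of the germ cell list, which holds chaperones, co-chaperones and the heat shock factor Hsf5, were lower in KO-F1 spermatozoa. Of these 10 were without overlap (25.4% of all genes lay wholly lower). Their median log2 change was -1.66, and DESeq2 called 2 of them. Among them Dnajb8, an HSP40 of spermatids, was at 511 and 372 CPM against 1813 and 1663 CPM, a log2 change of -2.01 ± 0.41 (adjusted p = 0.140, edgeR, and 2.59e-06, DESeq2). Dnajb8 and Dnajb4 are also on the study's list from these libraries. The sign was not particular to the germ cell list. The late spermatogenesis markers were lower for 28 of 29 tested, 26 without overlap, with a median log2 change of -1.80.

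Co-chaperones and stress genes of the other lists had either sign. Bag5, a co-chaperone that releases nucleotide from HSP70, was at 152 and 129 CPM against 429 and 536 CPM (log2 change -1.80 ± 0.39). Dnajb4, an HSP40, was at 138 and 151 against 364 and 506 CPM (-1.61 ± 0.40). Both passed the DESeq2 limits. Hspb8, a small heat shock protein that acts with Bag3 in selective autophagy, was at 116 and 35.2 CPM against 6.93 and 10.97 CPM (3.06 ± 0.73), and Atf4, a transcription factor of the integrated stress response, at 178 and 135 against 53.7 and 43.9 CPM (1.64 ± 0.42). These too were called by DESeq2. Bag2, an HSP70 co-chaperone, was at 108 and 97.8 against 25.1 and 38.8 CPM (1.68 ± 0.46) and was not called.

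In KO-F2 against Ctrl-F1 spermatozoa most genes of the endoplasmic reticulum list had the sign of Hspa5. The list holds lectin chaperones, disulfide isomerases and stress factors, among them the transcription factors Xbp1, Ddit3, Atf4 and Atf6, and not the HSP40 partners of Hspa5. Of its 17 genes 15 were lower, with a median log2 change of -0.67 against 0.07 over all genes. Of the lower genes 6, and of the higher genes 1, had an unadjusted p under 0.05 (edgeR), which 1960 of all 13149 genes had. Calr, the lectin chaperone calreticulin, was at 216 and 273 CPM against 854 and 696 CPM (log2 change -1.66 ± 0.32). Pdia3, which forms disulfide bonds in glycoproteins, was at 92.5 and 88.3 against 291 and 230 CPM (-1.52 ± 0.31), and Canx, the membrane lectin calnexin, at 90.3 and 104 against 297 and 237 CPM (-1.45 ± 0.31). DESeq2 called all 3 and edgeR none. On the same list Herpud1, a factor that helps to clear misfolded proteins, was higher, at 393 and 407 against 246 and 169 CPM (0.95 ± 0.33, not called). Clpb, a mitochondrial disaggregase, was at 2163 and 2687 against 1000 and 836 CPM (1.41 ± 0.34, called by DESeq2), and Dnajc5b, a germ cell HSP40, at 64.7 and 69.2 against 38.6 and 23.6 CPM (1.10 ± 0.39, not called). Of the 119 network genes tested DESeq2 called 1 higher and 4 lower, where it called 2.14% of all genes. The sign of the endoplasmic reticulum list was not particular to KO-F2. In KO-F1 against Ctrl-F1 spermatozoa 14 of its 17 genes were lower, with a median log2 change of -0.39 against 0.02 over all genes.

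Between KO-F2 and KO-F1 spermatozoa edgeR called 5 of 121 network genes tested, where it called 2.31% of all genes. Dnajc5b rose by 3.42 ± 0.38 on the log2 scale, from 7.19 and 6.86 CPM to 64.7 and 69.2 CPM. Cct6b, the testis form of a subunit of the cytosolic chaperonin TRiC, rose by 2.59 ± 0.35, from 13.8 and 14.6 CPM to 80.4 and 70.1 CPM. Clpb rose by 3.22 ± 0.45, from 203 and 382 CPM, and Herpud1, named after its values were seen because it completes the 5, by 2.63 ± 0.38. Bag2 fell by 2.65 on the log2 scale, from 108 and 97.8 CPM to 15.01 and 13.9 CPM. The adjusted p values of these 5 were 0.00911 to 0.00980 (edgeR). When libraries were scaled by their totals edgeR called 0 genes in this comparison. Cdc37l1, an HSP90 co-chaperone, was at 29.8 and 26.5 against 125 and 112 CPM (-1.89 ± 0.32), and Atf4 at 43.1 and 36.4 against 178 and 135 CPM (-1.79 ± 0.33), both called by DESeq2. All 13 germ cell genes of the network were higher in KO-F2 than in KO-F1 spermatozoa, with a median log2 change of 1.63. Of these 11 were without overlap, where 33.9% of all genes lay wholly higher. The late spermatogenesis markers had the same sign for 29 of 30 genes, with a median of 2.31.

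**Figure D4:**
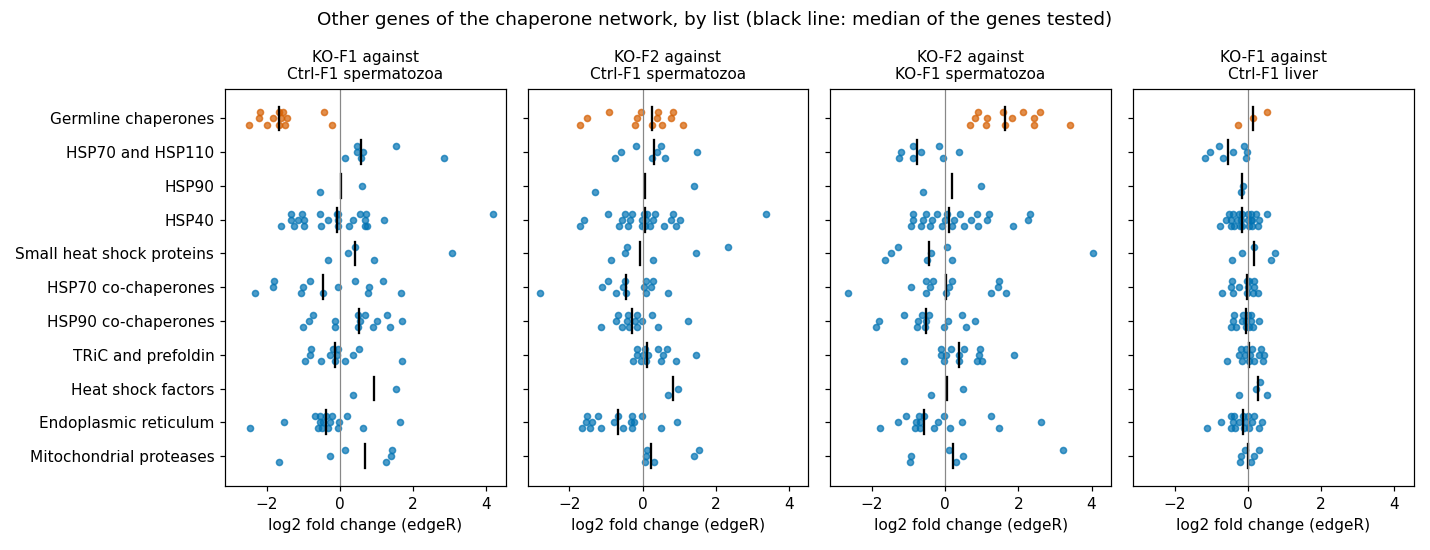
Log2 fold changes of the other chaperone network genes that were tested, each point a gene, grouped by list, with the median as a black line. The germ cell list is at a median of -1.66 in KO-F1 against Ctrl-F1 spermatozoa, 0.26 in KO-F2 against Ctrl-F1 and 1.63 in KO-F2 against KO-F1, and the endoplasmic reticulum list at -0.39, -0.67 and -0.59 in the same order.

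In liver 110 network genes were tested and neither tool called any of them, with 5 higher and 18 lower at an unadjusted p under 0.05, which 1083 of all 11505 genes had. All 8 other HSP70 and HSP110 genes tested had lower levels in KO-F1 liver, 5 without overlap where 21.4% of all genes lay wholly lower, with a median log2 change of -0.54 against -0.01 over all genes. Among them were Hspa1a (2.20 and 1.02 against 2.35 and 5.04 CPM, log2 change -1.18 ± 0.57), Hspa1b (17.5 and 6.67 against 21.9 and 28.4 CPM, -1.05 ± 0.38) and Hyou1, the HSP110 of the endoplasmic reticulum (95.2 and 119 against 160 and 184 CPM, -0.69 ± 0.17). Bag3, a co-chaperone induced by heat shock, was at 26.5 and 24.0 against 38.9 and 43.2 CPM (-0.70 ± 0.16), and Cct6a, a subunit of TRiC, at 44.6 and 48.8 against 71.2 and 67.9 CPM (-0.58 ± 0.15). Hsf1, the main transcription factor of the heat shock response, was at 15.9 and 16.7 against 10.6 and 12.0 CPM (0.52 ± 0.19). Hspb6, a small heat shock protein, was at 16.6 and 16.4 against 8.46 and 11.4 CPM (0.73 ± 0.22), and Pfdn2, a subunit of prefoldin, at 52.1 and 44.8 against 39.0 and 32.0 CPM (0.45 ± 0.17).

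Between control spermatozoa and control liver 23 of the 121 network genes tested were called higher and 20 lower, where 30.2% of all genes were called. Dnajb8 had 4184 and 1971 counts in spermatozoa and 0 in both liver libraries, and Hspb9, a small heat shock protein of testis, had 6099 and 3935 counts against 0 and 1. Bag5 was higher by 5.08 ± 0.31 on the log2 scale. Hspa9, the mitochondrial HSP70, fell by 4.02, Hspb8 fell by 4.45 and Dnaja1, the main HSP40 partner of Hspa8, fell by 2.98 on the log2 scale.

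Over the 6 sperm libraries, the levels of other genes that most resembled those of the germ cell chaperones were found among 6226 genes with at least 10 counts in each library, as Pearson's r of log2(CPM + 1). The 3 nearest to Hspa1l were Narfl (r = 0.998), Tarbp2 (0.996) and Vps4a (0.995). Those nearest to Hspa2 were Mesp1 (0.9995), Pbx4 (0.9989) and 4922502D21Rik (0.998), which was at 412 and 240 CPM in control spermatozoa, at 99.7 and 108 CPM in those of the KO-F1 males and at 380 and 248 CPM in the KO-F2 libraries. Those nearest to Hspa4l were Eif4g3 (0.996), Ak1 (0.995) and Cep85l (0.995). The points of each correlation are 6 libraries from 3 groups. The KO-F2 libraries are deeper, and their labels name a run that the F1 sperm labels do not name. The values are therefore a description. Among the 10 genes Hspa1l and Hspa4l were at r = 0.976, Hspa2 and Hspa4l at 0.920 and Hspa1l and Hspa2 at 0.892. The ubiquitous gene Hsp90aa1 was at 0.721 with Hspa1l, 0.812 with Hspa2 and 0.677 with Hspa4l. Hspd1 and Hspa4l were at -0.983 over the same 6 libraries, the lowest of all pairs.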

How the data were processed

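The data are raw read counts per gene symbol, deposited by the authors for 10 mouse libraries (2 per group). According to their methods, single-end reads were aligned to mm10 with HISAT2 2.1.0 and uniquely aligned reads were counted with featureCounts; the annotation and strand setting are not given in the sources used here. Sperm cDNA was amplified by PCR, so intervals and the limit of 3 counts cover counting error only. Of 23420 lines per file, the 4 lines of 2 repeated symbols were left out. The other 37 samples of the series are not analysed here.

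Groups were compared with edgeR 4.0.16 in R 4.3.3 (TMM, filterByExpr with a minimum count of 10 and a minimum total of 15, quasi-likelihood F test, Benjamini-Hochberg adjustment over all genes tested), with calls at a 2-fold or larger difference and adjusted p below 0.01. DESeq2 1.42.0 at its default settings was the first alternative; others were its size factors, library totals, other filters, a replicate block, thinning, other thresholds and leaving out each library. DESeq2 with a library left out, its limit of 0.05 and the crossed block in liver were chosen after seeing the data. The methods call the 2 libraries of each group independent biological replicates, and 2 against 2 allows no exact permutation p under 0.333. CPM were computed within each tissue with TMM factors. Scripts were tested on simulated counts.

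The 10 genes, the gene lists and the rules were chosen with earlier results of these data known. The text names all 10 genes and, in each of 5 comparisons, up to 3 higher and 3 lower network genes with the smallest edgeR p among those without overlap, the 3 genes most like each germ cell member, Hspa1a, Hspa1b and Rn45s. Deviations of same-numbered libraries from their group means correlated at -0.162 to 0.153 between groups; no label ties a number to a shared animal or day and there are only 2 pairs, so the libraries were not treated as paired. Exon lengths, coordinates and promoters are from RefSeq annotation of GRCm38.p6.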

Additional observations from a re-analysis of the deposited data

How the results depend on the processing

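The 2 libraries per group, shallow F1 sperm libraries and the lack of an F2 control limit what these comparisons can show, and most calls of the 10 genes turned on the test. In KO-F1 against Ctrl-F1 spermatozoa the quasi-likelihood test called 0 genes, with 3 by DESeq2 (also at an adjusted p under 0.05), 2 by edgeR's likelihood ratio test and 2 with at least 10 counts required in every library; with a library left out the count was 0 by edgeR and 0 to 1 by DESeq2. In KO-F2 against Ctrl-F1 spermatozoa 0 became 1 (Hspa5) by DESeq2 and by the likelihood ratio test, 2 by DESeq2 at 0.05, 0 to 1 with a library left out by edgeR and 1 to 2 by DESeq2. In KO-F2 against KO-F1 spermatozoa 0 became 6 by DESeq2, by the likelihood ratio test, with no filter and at 0.05 by either tool, 5 with at least 10 counts in every library, and 1 (Hspa8) with DESeq2 size factors or thinning; with a library left out it was 0 to 4 by edgeR and 1 to 5 by DESeq2. In liver 0 became 1 (Hsph1) by DESeq2 at either limit, by the likelihood ratio test and with no filter, and was 0 to 1 with a library left out by either tool. The interaction gave 3 by DESeq2 and 2 by the likelihood ratio test. The tissue comparison gave 5 to 9 under all alternatives. The cause of these differences was not tested.

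With the replicate block the calls among the 10 genes were 0 in KO-F1 against Ctrl-F1 spermatozoa, 1 (Hspa5) in KO-F2 against Ctrl-F1, 1 (Hspa8) in KO-F2 against KO-F1, 0 in liver (0 also with crossed numbers) and 6 between tissues. Over all genes the block moved the calls from 0 to 362 in KO-F2 against Ctrl-F1 and from 312 to 819 in KO-F2 against KO-F1. The interaction was not run with the block or with thinning.

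Among single genes, 25 values turned sign, each for a gene that was not called. In KO-F2 against Ctrl-F1 spermatozoa Hsp90ab1 (0.03) went to -0.0026 by DESeq2, -0.0033 with its size factors, -0.0522 with thinning and -0.0760 to 0.22 with a library left out. There Hspa2 (-0.04) went to 0.0855 with library totals, 0.0144 with no filter, 0.0562 with at least 10 counts, 0.0169 with the replicate block and -0.42 to 0.62 with a library left out, Hsp90aa1 to -1.23 to 0.0895 and Hsph1 to -0.80 to 1.25. With a library left out Hsph1 ran from -0.56 to 1.13 in KO-F1 against Ctrl-F1 spermatozoa and from -0.73 to 0.85 in KO-F2 against KO-F1, where library totals gave -0.21, and Hspa4l in liver from -0.56 to 0.0309. Between tissues Hspa5 (0.05) went to -0.0162 by DESeq2 and with its size factors, -0.18 with library totals, -0.13 with no filter, -0.21 with at least 10 counts and -0.46 to 0.25 with a library left out. Library totals moved the median of all genes from 0.02 to 0.46 in KO-F1 against Ctrl-F1 spermatozoa, and the share of genes higher from 50.5 to 63.0%. Hspa1l (-2.18 to -1.55), Hspa2 (-2.22 to -1.18) and Hspa4l (-1.89 to -1.40) stayed below 0 there under every alternative run.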
